A study of Sus scrofa with 105 samples.

Results

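The difference between 2 brain regions was measured in piglets killed 1 week after a diffuse traumatic brain injury. The hippocampus with the amygdala, parts of the limbic system that serve memory and emotion, was compared with the frontal lobe, which holds neocortex and the white matter under it. The members are the 30 libraries that carry the label of the 1 week group, 15 from each region, of 105 in the series. The library name gives each animal a code, and the codes pair the libraries into 15 animals of 53 in all. Below, these animals are numbered 1 to 15. All were female piglets (Sus scrofa) that survived 6 to 8 days and received no treatment. Their age and the way the injury was made are not among the labels used here.

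The study read small RNA from fixed, paraffin-embedded brain. The region difference of the other groups is set beside that of the 1 week animals where stated. These are injured piglets at 1 day, with 10 pairs of libraries. A further group is injured piglets given cyclosporine A (CsA, an immunosuppressant that inhibits calcineurin), with 9 pairs and 1 animal with a hippocampus-amygdala library alone. They received 20 mg/kg per day intravenously, with a loading dose at 6 hours and an infusion of 24 hours, and survived 30 hours. Sham or naive piglets, with survival of 0 to 8 days, gave 18 pairs and are the uninjured animals of the series. All groups were female. The label joins sham and naive animals, so they cannot be told apart here.

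A microRNA (miRNA) is a short RNA, cut from a hairpin precursor, that lowers the output of messenger RNAs whose sites match its seed. The hairpin can give a mature miRNA from each arm, named 5p and 3p, and precursors that lie close together on a chromosome are often cut from 1 transcript. Several miRNAs are far more abundant in 1 cell type than in others, such as miR-124 in neurons, miR-219 and miR-338 in myelinating oligodendrocytes, and miR-126 in endothelium. In bulk tissue such as this, fewer cells of a type and less RNA per cell cannot be told apart.

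The table gave 457 mature miRNA names, of which 368 had a count in these 30 libraries and 275 passed the filter on low counts and were tested. The library totals ran from 3096140 to 12523977 counts in hippocampus and amygdala, with a median of 7031130, and from 2450177 to 11645571 in frontal lobe, with a median of 6957558. The totals did not differ beyond the spread between animals. The geometric mean ratio of hippocampus-amygdala to frontal total was 1.04, and the total was higher in 10 of 15 animals (exact 2-sided sign-flip permutation p = 0.660, adjusted p = 0.660 over 2 tests). The let-7 family took 75.3% ± 4.81 of counts in hippocampus and amygdala and 76.9% ± 4.86 in frontal lobe (SD, n = 15 each). Its share was lower in hippocampus and amygdala in 13 of 15 animals, by 1.60 percentage points on average (exact 2-sided sign-flip permutation p = 0.00891, adjusted p = 0.0178). Animals 1, 2, 3 and 5 stood apart in both regions. Their 8 libraries held 2450177 to 3942375 counts with 80.2% to 84.9% let-7, while the other 22 held 4843184 to 12523977 counts with 69.3% to 78.7%. Animals 4, 6, 7 and 8 stood apart in the frontal lobe only, as described with miR-183 below. The main neural markers were abundant in both regions, with mean levels of 9438 CPM of miR-9 and 7916 CPM of miR-124a in hippocampus and amygdala, and 9319 and 9425 CPM in frontal lobe. CPM is a count scaled by the total of its library, with TMM factors between libraries, so it compares libraries and does not count molecules.

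Tested within animals with edgeR's quasi-likelihood test, 141 of the 275 miRNAs (51.3%) differed between the regions at a Benjamini-Hochberg adjusted p under 0.05. In hippocampus and amygdala 69 were higher (25.1% of those tested) and 72 were lower (26.2%). Most differences were small. The median size was 1.30-fold among the higher and 1.33-fold among the lower miRNAs, 103 of the 141 were under 1.5-fold, and 5 in each direction reached 2-fold. The median log2 fold change of all miRNAs tested, hippocampus and amygdala over frontal lobe, was -0.01. The differences recurred from animal to animal. Of the 141 miRNAs, 19 were higher in all 15 animals and 19 were lower in all 15, and 121 went the same way in at least 12 animals. Leaving out each animal in turn, 121 of the calls were never lost. The 20 lost without at least 1 animal were miR-34c, miR-183, miR-146a-5p, miR-151-5p, miR-206, miR-29c, let-7d-5p, miR-335, miR-324, miR-92a, miR-1307, miR-330, miR-145-5p, miR-378, miR-499-5p, miR-1249, miR-1468, miR-18b, miR-504 and miR-10b. None of the 134 miRNAs that missed the threshold went 1 way in all 15. The test used the same within-animal differences, so these counts of animals describe the calls and are not independent support. The levels of the 2 regions still overlapped across animals for nearly all. The exceptions were miR-219b-3p and miR-181b, 0.727% of those tested, for which every frontal library lay above every hippocampus-amygdala library. Calls were more frequent among abundant miRNAs. Of the miRNAs at 1000 CPM or more, 41 of 56 differed, with a median standard error (SE) of 0.063 on the log2 scale. At 100 to 1000 CPM 45 of 73 differed, at 10 to 100 CPM 45 of 87, and under 10 CPM 10 of 59, where the median SE was 0.195.

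**Figure D1:**
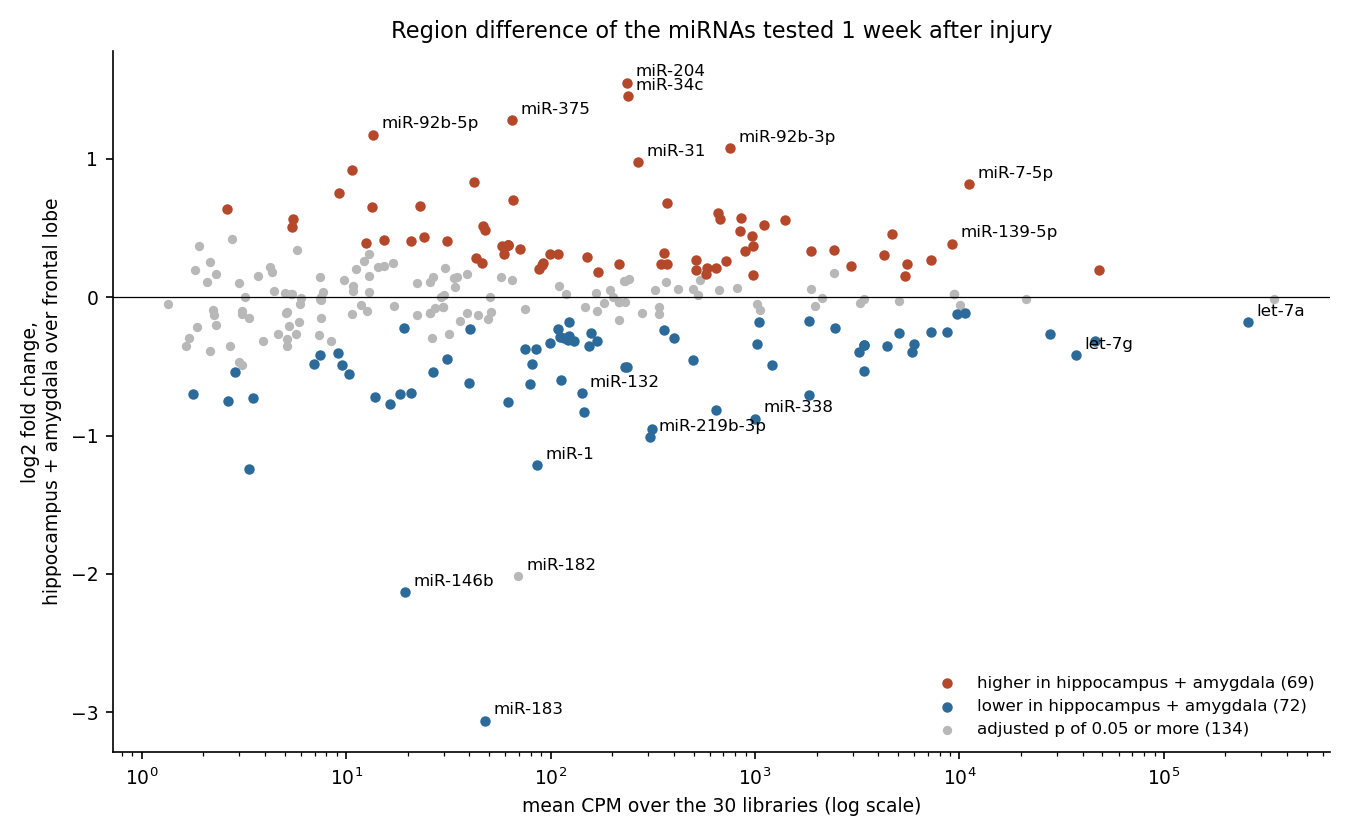
Each point is 1 of the 275 miRNAs tested, with its mean level over the 30 libraries in CPM on a log axis and its log2 fold change, hippocampus and amygdala over frontal lobe. The 69 higher and 72 lower miRNAs are coloured, most lie within 1.5-fold of no difference, and miR-183, miR-146b, miR-204 and miR-34c lie farthest out among those that passed.

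The most abundant miRNA with a large difference was miR-7-5p, an miRNA of neurons and neuroendocrine cells known for its pairing with the circular RNA CDR1as. Its level ran from 8096 to 20861 CPM in hippocampus and amygdala, with a median of 13909, and from 6159 to 10155 CPM in frontal lobe, with a median of 8201. It was higher in hippocampus and amygdala in all 15 animals, and 1 hippocampus-amygdala library, of animal 1, fell within the frontal range. The difference was 1.76-fold (log2 0.82, SE 0.08, adjusted p = 6.78e-09). The other arm, miR-7-3p, averaged 2.51 CPM in hippocampus and amygdala and 3.64 CPM in frontal lobe and did not pass (log2 -0.49, adjusted p = 0.0805).

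miR-31 was also higher in all 15 animals. Its level was 132 to 609 CPM in hippocampus and amygdala (median 359) and 71.0 to 261 CPM in frontal lobe (median 208), a 1.96-fold difference (log2 0.97, SE 0.09, adjusted p = 2.26e-09). The ranges overlapped because animals 1, 2, 3 and 5 were low in both regions, with 132 to 209 CPM in hippocampus and amygdala and 71.0 to 85.5 CPM in frontal lobe. These are the animals with the smallest libraries and the highest let-7 share, and the part of depth in that level was not tested. Within each of the 4 the hippocampus-amygdala library was nevertheless the higher.

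Both arms of miR-92b were higher, a miRNA known from neural progenitors that shares its seed with miR-92a. miR-92b-3p had 715 to 1679 CPM in hippocampus and amygdala (median 962) and 304 to 1166 CPM in frontal lobe (median 430), and was 2.11-fold higher (log2 1.08, SE 0.13, adjusted p = 2.51e-06; 14 of 15 animals). In animals 1 and 9 the regions were close, at 1220 and 746 CPM in hippocampus and amygdala against 1166 and 760 CPM in frontal lobe. miR-92b-5p, at 4.93 to 50.0 CPM in hippocampus and amygdala and 2.86 to 25.5 CPM in frontal lobe, was higher in 15 of 15 animals (log2 1.17, adjusted p = 1.29e-07).

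**Figure D2:**
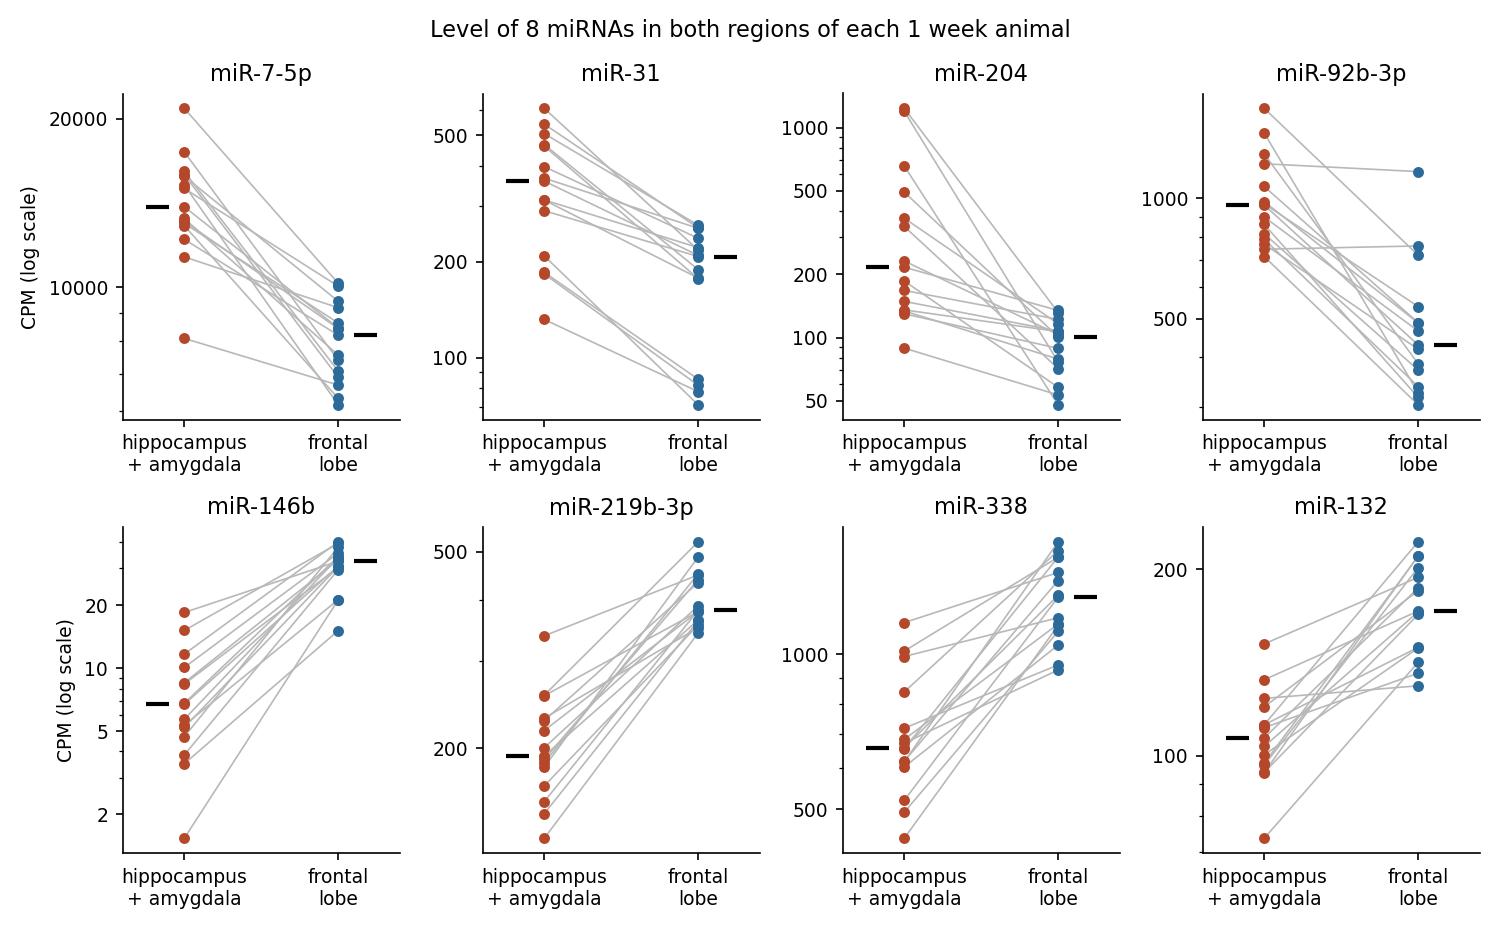
Level in CPM (log axes) of 8 miRNAs in each 1 week animal. Grey lines join the hippocampus-amygdala library (left) and the frontal library (right) of 1 animal, and bars mark the medians. miR-7-5p, miR-31 and miR-204 lay higher in hippocampus and amygdala in 15 of 15 animals and miR-92b-3p in 14, while the 4 in the lower row lay lower in 15 of 15.

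The largest increases belonged to miR-204 and miR-34c, and they were uneven between animals. miR-204 is a miRNA of choroid plexus and retinal pigment epithelium, and miR-34c is known from ciliated cells. miR-204 had 89.1 to 1235 CPM in hippocampus and amygdala (median 216) and 47.9 to 135 CPM in frontal lobe (median 101). It was higher in 15 of 15 animals, 2.93-fold in the fit (log2 1.55, SE 0.33, adjusted p = 0.00144). The excess was greatest in animals 4, 9 and 3, with 1235, 1197 and 657 CPM in hippocampus and amygdala, while in animal 10 the level was 136 CPM in hippocampus and amygdala and 107 CPM in frontal lobe. miR-34c had 87.2 to 1003 CPM in hippocampus and amygdala (median 270) and 2.35 to 215 CPM in frontal lobe (median 113), and was higher in 12 of 15 animals (log2 1.45, SE 0.51, adjusted p = 0.0271). Its highest hippocampus-amygdala libraries were again those of animals 3, 9 and 4, at 1003, 967 and 721 CPM, and without animal 9 the call was lost (adjusted p = 0.0513). It was also lost without animals 4, 6, 7 and 8 (adjusted p = 0.0778) and without animals 1, 2, 3 and 5 (adjusted p = 0.157). Summed, these 2 choroid plexus miRNAs, the only ones of that list in the table, ran from 223 to 2164 CPM in hippocampus and amygdala and from 119 to 304 CPM in frontal lobe, and the sum was higher in 13 of 15 animals. How much choroid plexus each block of tissue held was not measured otherwise, and its part in these differences was not tested.

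miR-375, best known from pancreatic islet and pituitary cells, followed the same animals in part. Its level was 20.5 to 241 CPM in hippocampus and amygdala (median 74.9) and 5.03 to 82.0 CPM in frontal lobe (median 32.9; log2 1.28, SE 0.30, adjusted p = 0.00256; 13 of 15 animals). Animals 3 and 9 had the highest hippocampus-amygdala levels, 241 and 151 CPM. The frontal library of animal 15 was the lowest for both miR-375 and miR-34c, at 5.03 and 2.35 CPM.

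Several other named increases recurred in nearly every animal. miR-105-1 averaged 14.0 CPM in hippocampus and amygdala and 7.36 CPM in frontal lobe (log2 0.92, adjusted p = 9.05e-08), and miR-935 averaged 54.0 and 30.4 CPM in the same order (log2 0.83, adjusted p = 3.86e-08). miR-184, a miRNA of cornea and neural stem cells, averaged 82.3 CPM in hippocampus and amygdala and 48.9 CPM in frontal lobe (log2 0.70, adjusted p = 8.10e-08). miR-489, known from quiescent muscle stem cells, averaged 459 and 285 CPM in the same order (log2 0.68, adjusted p = 6.41e-08). Each of these 4 was higher in hippocampus and amygdala in 15 of 15 animals. miR-135 was higher in 13 of 15 animals (11.5 CPM in hippocampus and amygdala, 7.03 CPM in frontal lobe; log2 0.75, adjusted p = 3.15e-04).

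The largest decrease that recurred in every animal was that of miR-146b, which, like miR-146a, is induced by NF-kB and dampens Toll-like and interleukin receptor signalling. It had 1.54 to 18.5 CPM in hippocampus and amygdala (median 6.72) and 15.1 to 40.2 CPM in frontal lobe (median 32.5). Only the hippocampus-amygdala libraries of animals 1 and 6, at 18.5 and 15.2 CPM, reached the lowest frontal level, which was that of animal 2. The level in hippocampus and amygdala was 4.38-fold lower (log2 -2.13, SE 0.15, adjusted p = 9.50e-11). miR-146a-5p was near the limit of detection, with a mean of 1.50 CPM in hippocampus and amygdala and 2.06 CPM in frontal lobe. It passed narrowly (log2 -0.70, SE 0.29, adjusted p = 0.0434), and lost the call without any 1 of 11 of the animals (adjusted p of up to 0.105).

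Of the 5 oligodendrocyte and myelin miRNAs tested, 3 were lower in hippocampus and amygdala and none was higher, against 26.2% lower and 25.1% higher among all miRNAs. miR-219 and miR-338 promote the maturation of oligodendrocytes. miR-219b-3p had 132 to 338 CPM in hippocampus and amygdala (median 193) and 342 to 523 CPM in frontal lobe (median 381), with no overlap (log2 -1.01, SE 0.08, adjusted p = 2.29e-10). miR-338 had 439 to 1152 CPM in hippocampus and amygdala (median 658) and 933 to 1655 CPM in frontal lobe (median 1292; log2 -0.88, SE 0.09, adjusted p = 6.41e-08). It was lower in hippocampus and amygdala in 15 of 15 animals, though the ranges overlapped. miR-219a was barely detected, with 2.39 CPM in hippocampus and amygdala and 2.23 CPM in frontal lobe (log2 0.17, adjusted p = 0.573). The list median was -0.48 against -0.01 for all miRNAs. The summed level of the list was lower in 15 of 15 animals, with medians of 945 CPM in hippocampus and amygdala and 1786 CPM in frontal lobe. miR-23a, the other one that passed, had a log2 fold change of -0.48 (adjusted p = 3.10e-04), and miR-19b did not pass (-0.27, adjusted p = 0.162).

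miR-132 and miR-212 are cut from 1 transcript that neuronal activity induces through CREB. miR-132 had 73.5 to 152 CPM in hippocampus and amygdala (median 107) and 130 to 221 CPM in frontal lobe (median 171), and was lower in all 15 animals (log2 -0.69, SE 0.08, adjusted p = 2.88e-07). miR-212, at a median of 7.73 CPM in hippocampus and amygdala and 11.4 CPM in frontal lobe, was lower in 12 of 15 animals (log2 -0.40, adjusted p = 0.00881), a call lost without animals 4, 6, 7 and 8 (adjusted p = 0.0920). Both members of this list were thus lower, where 26.2% of all miRNAs tested were lower.

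The astrocyte-associated list, with 9 miRNAs tested, had 6 lower and 1 higher (26.2% and 25.1% of all miRNAs), and a median log2 fold change of -0.39. The summed level of the list, which its abundant members dominate, was lower in 10 of 15 animals, with medians of 28640 CPM in hippocampus and amygdala and 31185 CPM in frontal lobe. The largest decreases were those of the miR-23b, miR-27b and miR-24 locus. miR-23b had 150 to 279 CPM in hippocampus and amygdala (median 214) and 176 to 582 CPM in frontal lobe (median 441; log2 -0.95, SE 0.11, adjusted p = 1.64e-07). miR-27b-3p had 73.8 to 136 CPM in hippocampus and amygdala and 119 to 277 CPM in frontal lobe (log2 -0.83, adjusted p = 3.86e-08). Both were lower in 15 of 15 animals. miR-26a and miR-29a-3p, the abundant members, lay near 0, with log2 fold changes of -0.01 for each (adjusted p = 0.882 and 0.918). These miRNAs are also found in vessels and other cells, so the list does not mark astrocytes alone.

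Of the 10 microglia and inflammation miRNAs tested, 6 were lower and 1, miR-125b, was higher, against 26.2% lower and 25.1% higher among all miRNAs, with a median of -0.30. miR-155-5p, induced by NF-kB in activated macrophages and microglia, had 146 to 245 CPM in hippocampus and amygdala (median 193) and 225 to 374 CPM in frontal lobe (median 263). It was lower in 15 of 15 animals (log2 -0.51, SE 0.07, adjusted p = 2.74e-06). miR-21-5p, which rises in many forms of tissue injury, had a median of 101 CPM in hippocampus and amygdala and 134 CPM in frontal lobe (log2 -0.28, adjusted p = 0.00840; lower in 12 of 15). miR-21-3p did not pass (log2 -0.20, adjusted p = 0.482). The list also holds miR-124a and miR-181a, which are abundant in neurons, so it is not specific to microglia.

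Among blood leukocyte miRNAs 1 of 5 was higher and 1 was lower, against 25.1% higher and 26.2% lower among all miRNAs. miR-223, of neutrophils and monocytes, was higher in hippocampus and amygdala at a low level (medians of 6.32 CPM in hippocampus and amygdala and 4.36 CPM in frontal lobe; log2 0.57, adjusted p = 0.00739; 13 of 15 animals), a call lost without animals 4, 6, 7 and 8 (adjusted p = 0.0590). miR-150, of mature lymphocytes, was lower (log2 -0.37, adjusted p = 1.47e-04). The pan-leukocyte miR-142-5p and miR-142-3p, at means of 27.8 and 35.2 CPM in hippocampus and amygdala and 25.6 and 32.3 CPM in frontal lobe, did not pass (adjusted p = 0.305 and 0.267). Among the erythrocyte miRNAs miR-486 was 0.29 higher on the log2 scale (166 CPM in hippocampus and amygdala, 136 CPM in frontal lobe; adjusted p = 0.0198). That call was lost without animals 4, 6, 7 and 8 (adjusted p = 0.0994) and in the fit of 52 animals (adjusted p = 0.139). miR-451, the defining erythroid miRNA, was near 0, at 1.45 CPM in hippocampus and amygdala and 1.85 CPM in frontal lobe (log2 -0.35, adjusted p = 0.315). miR-363 was lower (log2 -0.48, adjusted p = 0.0176).

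miR-126, made from an intron of the endothelial gene EGFL7, was lower with both arms. miR-126-3p had 2818 to 5188 CPM in hippocampus and amygdala (median 3891) and 3454 to 6096 CPM in frontal lobe (median 5521; log2 -0.36, adjusted p = 4.78e-06), lower in 15 of 15 animals. miR-126-5p averaged 421 CPM in hippocampus and amygdala and 576 CPM in frontal lobe (log2 -0.46, adjusted p = 4.57e-06). No other endothelial miRNA passed as lower. miR-222, miR-221-3p and miR-503 had log2 fold changes of -0.0019, 0.06 and 0.0041. miR-221-5p and miR-424-5p were at -0.27 and -0.17 (adjusted p = 0.0732 and 0.162). Of the 8 tested 2 were lower and 1, miR-424-3p, was higher (log2 0.25, adjusted p = 0.0155). The summed level of the list, which miR-126-3p dominates, was lower in 15 of 15 animals. Of 8 mural cell miRNAs 4 were lower and none higher, with miR-143-3p at 2818 CPM in hippocampus and amygdala and 3648 CPM in frontal lobe (log2 -0.39, adjusted p = 1.90e-04). Beside the counts of both lists, 26.2% of all miRNAs tested were lower and 25.1% higher.

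miR-1, the miRNA of cardiac and skeletal muscle, was lower in hippocampus and amygdala in every animal. It had 31.7 to 87.3 CPM in hippocampus and amygdala (median 49.7) and 77.8 to 183 CPM in frontal lobe (median 116; log2 -1.22, SE 0.11, adjusted p = 2.26e-09). miR-133a-3p, its neighbour in muscle, was near the limit of detection (2.21 CPM in hippocampus and amygdala, 4.46 CPM in frontal lobe; log2 -1.24, adjusted p = 6.60e-05), and miR-133a-5p had no count in the hippocampus-amygdala libraries. miR-206, of skeletal muscle, went the other way (49.9 CPM in hippocampus and amygdala, 42.9 CPM in frontal lobe; log2 0.24, adjusted p = 0.0310), a call lost without any 1 of animals 4, 8, 9 and 15 (adjusted p of up to 0.0716). miR-122-5p, the main miRNA of liver, was also lower (46.6 CPM in hippocampus and amygdala and 78.4 CPM in frontal lobe as medians; log2 -0.75, adjusted p = 7.60e-06). The part of RNA from outside the brain in these values was not tested.

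The neuron-enriched miRNAs did not move together. Of 21 names tested 8 were higher, 4 were lower (25.1% and 26.2% of all miRNAs) and 9 did not pass. Their median log2 fold change was 0.07. These names include sets that hold the same reads (miR-218 under 3 names, miR-9 under 3 and miR-129a-5p under 2), so 5 of the higher and 2 of the lower calls come from sets of 1 name each. Besides miR-7-5p, the higher ones were miR-139-5p (10348 CPM in hippocampus and amygdala, 8065 CPM in frontal lobe; log2 0.39, adjusted p = 1.47e-04), miR-139-3p (log2 0.56, adjusted p = 1.15e-05), miR-137 (log2 0.44), miR-7134-3p (log2 0.21) and miR-218 (log2 0.38). The lower ones included 2 of the most abundant neuronal miRNAs. miR-124a had 5814 to 12935 CPM in hippocampus and amygdala (median 7600) and 6924 to 13207 CPM in frontal lobe (median 9031; log2 -0.25, adjusted p = 0.00368; lower in 11 of 15). Its call was lost without animals 4, 6, 7 and 8 (log2 -0.16, adjusted p = 0.0758). miR-128 had 4654 to 6307 CPM in hippocampus and amygdala (median 5086) and 5083 to 8338 CPM in frontal lobe (median 6682; log2 -0.34, adjusted p = 8.19e-05; lower in 14 of 15). miR-129a-5p was the third (log2 -0.34, adjusted p = 0.00560). miR-9 and miR-138, with means of 9438 and 9754 CPM in hippocampus and amygdala and 9319 and 10265 CPM in frontal lobe, did not pass (log2 0.02 and -0.06, adjusted p = 0.821 and 0.459).

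**Figure D3:**
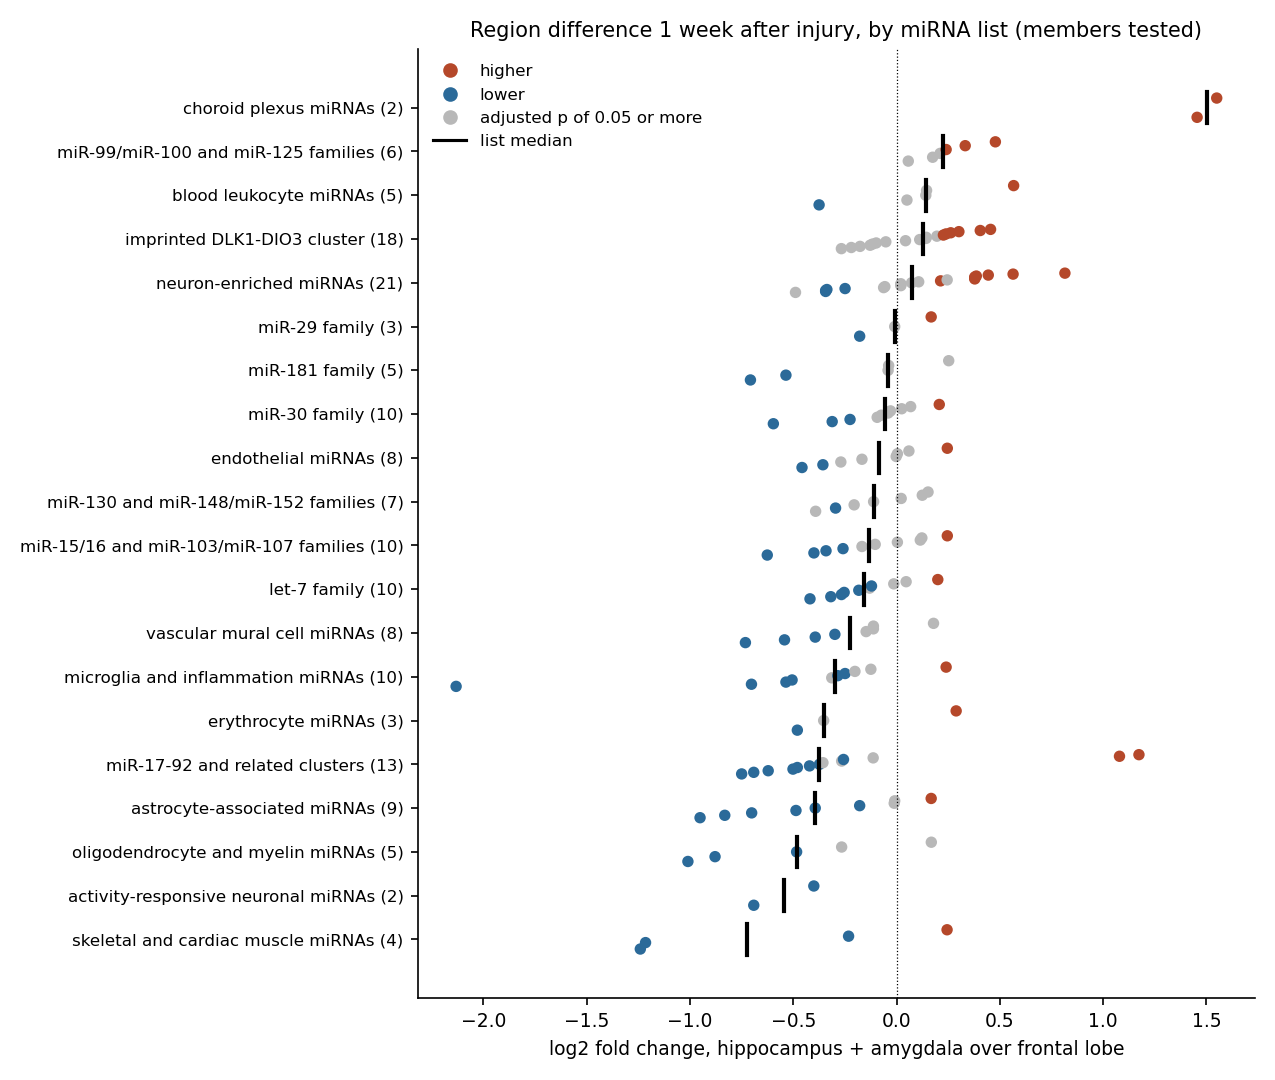
Log2 fold change, hippocampus and amygdala over frontal lobe, of each tested member of 20 lists of miRNAs, ordered by the list median (black bar), with the number tested in brackets. The medians of the choroid plexus, miR-99/100 and miR-125, blood leukocyte and DLK1-DIO3 lists lie farthest to the right of 0. That of the muscle list lies farthest to the left, followed by the activity-responsive, oligodendrocyte and astrocyte-associated lists.

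miR-34a, a target of p53 and a relative of miR-34c, was lower in hippocampus and amygdala while miR-34c was higher. It had 266 to 1222 CPM in hippocampus and amygdala (median 376) and 651 to 968 CPM in frontal lobe (median 762; log2 -0.81, SE 0.19, adjusted p = 0.00242; lower in 13 of 15). The exceptions were animals 9 and 4, with 1222 and 767 CPM in hippocampus and amygdala and 717 and 673 CPM in frontal lobe. These and animal 3, at 920 CPM, had the highest miR-34a of the hippocampus-amygdala libraries, the same 3 animals that led in miR-204 and miR-34c.

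The miR-181 family, abundant in brain and in lymphocytes, was split. miR-181b had 951 to 1829 CPM in hippocampus and amygdala (median 1339) and 1854 to 3742 CPM in frontal lobe (median 2266), with no overlap (log2 -0.71, SE 0.08, adjusted p = 6.41e-08). miR-181a was lower too (log2 -0.54, adjusted p = 1.83e-05). miR-181c and miR-181d-5p, from another locus, did not pass (log2 -0.04 for each, adjusted p = 0.724 and 0.693).

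Within the let-7 family, which marks differentiated cells, 6 of 10 names tested were lower and 1 was higher. Of all miRNAs tested 26.2% were lower and 25.1% higher. let-7g averaged 31884 CPM in hippocampus and amygdala and 42737 CPM in frontal lobe and was lower in 15 of 15 animals (log2 -0.42, adjusted p = 1.44e-06). let-7f-5p, let-7i-5p and let-7a followed with log2 fold changes of -0.32, -0.27 and -0.18 (adjusted p = 3.16e-05, 9.19e-04 and 0.00156), the call of let-7a being lost without animals 4, 6, 7 and 8 (adjusted p = 0.0732) and without animals 1, 2, 3 and 5 (adjusted p = 0.133). let-7c, the most abundant at 343622 CPM in hippocampus and amygdala and 351066 CPM in frontal lobe, did not pass (log2 -0.01, adjusted p = 0.841), and let-7e was higher (log2 0.20, adjusted p = 0.00272; 13 of 15 animals). let-7 miRNAs differ by few bases and may share reads, so single values are uncertain.

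let-7e lies beside miR-99b and miR-125a, and all 3 were higher (log2 0.48 for miR-99b and 0.33 for miR-125a, adjusted p = 1.65e-05 and 1.06e-05). In the miR-99/100 and miR-125 families 3 of 6 were higher and none lower, and their summed level was higher in 15 of 15 animals. miR-125b, at 5104 to 6770 CPM in hippocampus and amygdala and 4338 to 5874 CPM in frontal lobe, was higher in every animal by a small amount (log2 0.24, SE 0.05, adjusted p = 2.72e-04). The imprinted DLK1-DIO3 cluster, expressed from the maternal chromosome and abundant in brain, had 6 of 18 higher and none lower, where 25.1% of all miRNAs tested were higher and 26.2% lower. Its median log2 fold change was 0.13. Its most abundant members led, with miR-432-5p at 5382 CPM in hippocampus and amygdala and 3939 CPM in frontal lobe (log2 0.45, adjusted p = 1.87e-06) and miR-382 at log2 0.30 (adjusted p = 5.31e-05). The summed level of the cluster was higher in 15 of 15 animals, with medians of 15535 CPM in hippocampus and amygdala and 12951 CPM in frontal lobe.

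Of the miR-17-92 and related clusters, 8 of 13 were lower and 2 higher, where 26.2% of all miRNAs tested were lower and 25.1% higher. The 2 higher were the arms of miR-92b, which lies at a locus of its own. miR-20a-5p (log2 -0.50, adjusted p = 2.33e-05), miR-18a (log2 -0.62) and miR-17-3p (log2 -0.69) were among the lower. In the miR-15/16 and miR-103/107 families 4 of 10 were lower and 1 higher, with miR-16 at 5082 CPM in hippocampus and amygdala and 6699 CPM in frontal lobe, lower in 15 of 15 animals (log2 -0.40, adjusted p = 8.86e-07). Of 10 miR-30 names tested 3 were lower and 1 higher, and of 3 miR-29 names 1 was lower and 1 higher. The miR-130 and miR-148/152 families had 1 of 7 lower. The shares among all miRNAs given above stand beside each of these counts.

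The remaining named miRNAs were miR-450c-3p (12.2 CPM in hippocampus and amygdala, 20.7 CPM in frontal lobe; log2 -0.77, adjusted p = 2.38e-05) and miR-365-3p (log2 -0.73, adjusted p = 6.56e-05), lower in every animal. miR-149 was higher at high abundance (log2 0.27, adjusted p = 0.0177), a call lost without animals 4, 6, 7 and 8 (log2 0.23). miR-151-5p was lower by 0.12 on the log2 scale (adjusted p = 0.0388), but its call was lost without any 1 of 12 of the animals (adjusted p of up to 0.242). The hypoxia-induced miR-210 did not pass (log2 -0.16, adjusted p = 0.222). Of the HOX-cluster miRNAs, which mark position along the body axis, 2 were tested at a few CPM, and miR-10b was lower (log2 -0.54, adjusted p = 0.0282). A list of 8 miRNAs taken from earlier results of these data as regional had 7 higher and none lower, which is not independent evidence.

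**Figure D4:**
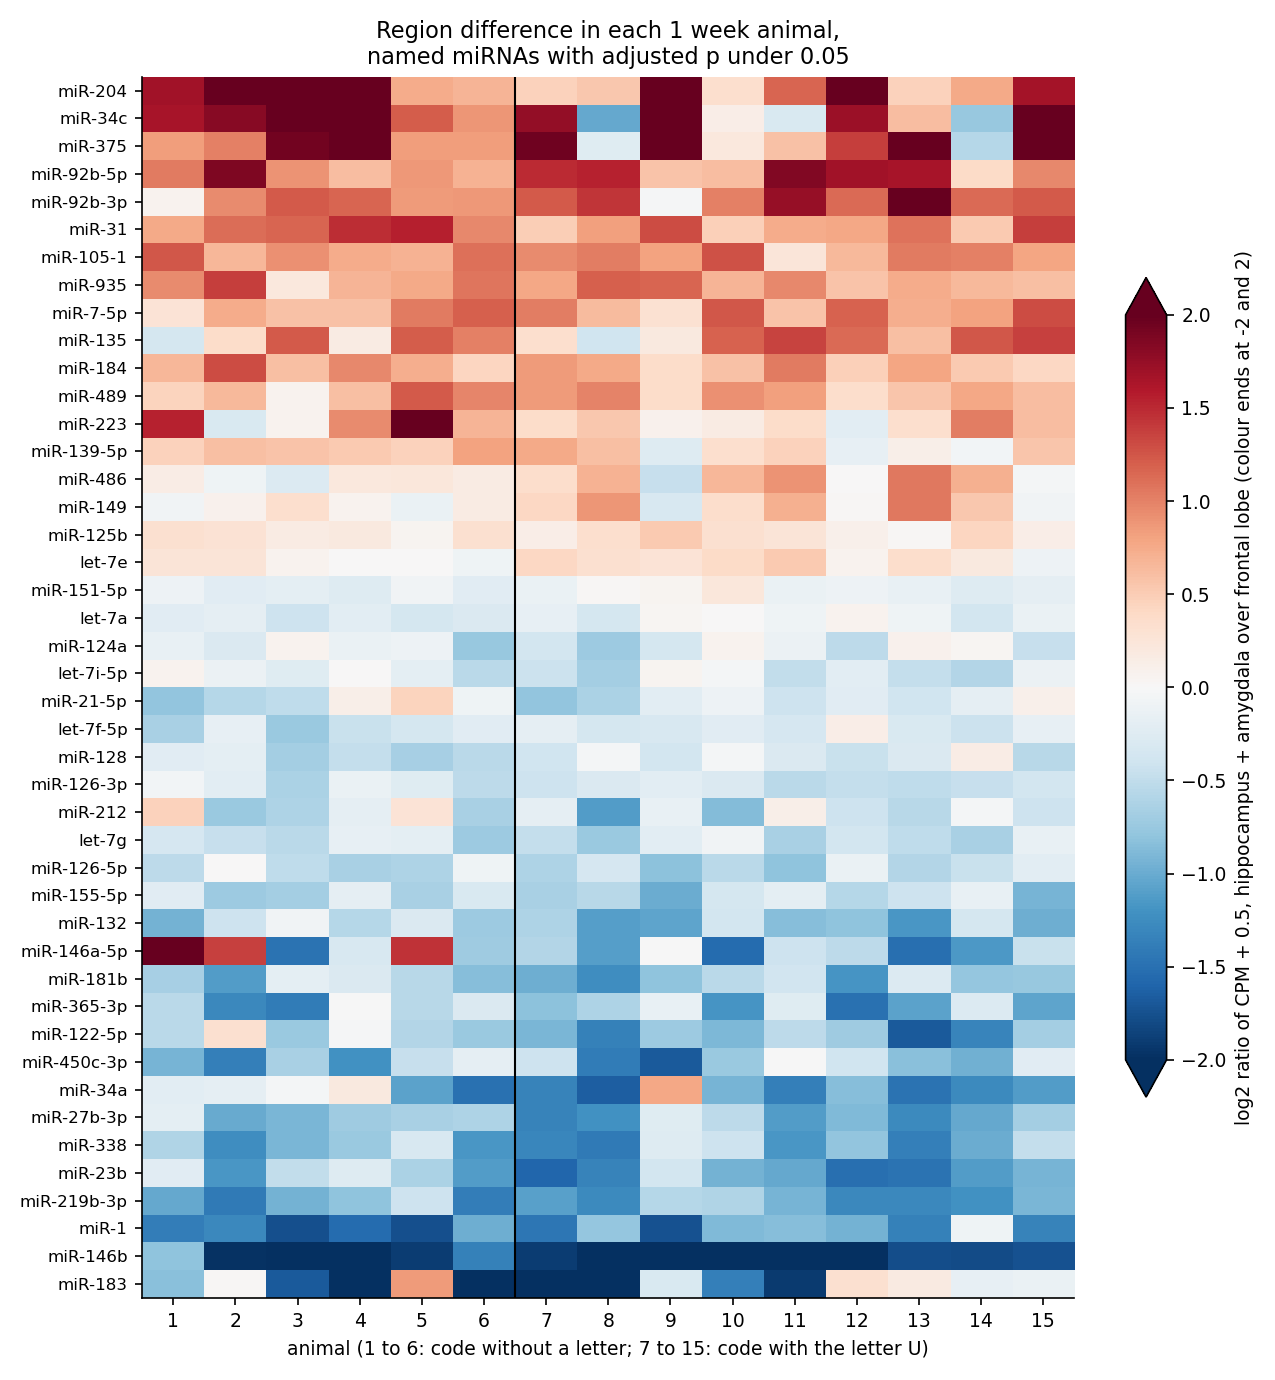
Log2 ratio of CPM + 0.5, hippocampus and amygdala over frontal lobe, in each of the 15 animals for the named miRNAs with an adjusted p under 0.05. Most rows keep 1 colour across animals, miR-204 and miR-34c reach the upper end of the scale in animals 3, 4 and 9, among others, and miR-183 reaches the lower end in animals 4, 6, 7 and 8.

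miR-183 had the largest fold change of all, and among the 1 week animals it came from 4. The miR-183, miR-96 and miR-182 cluster is known from sensory neurons, including those of the olfactory epithelium, and the miR-200, miR-141 and miR-429 family from epithelia and olfactory tissue. The frontal libraries of animals 4, 6, 7 and 8 had 201 to 512 CPM of miR-183, the other 11 frontal libraries had 0.410 to 9.70 CPM, and all 15 hippocampus-amygdala libraries had 0.114 to 5.96 CPM. The fit gave a log2 fold change of -3.06 with an SE of 1.18 (adjusted p = 0.0426). Without these 4 animals it was -0.52 (adjusted p = 0.192), and the call was lost without any 1 of animals 3, 4, 6, 7, 8, 10, 11 and 12 (log2 of -3.55 to -2.41 over all 15 omissions, adjusted p of up to 0.0990). miR-182 behaved alike, with 218 to 904 CPM in the 4 frontal libraries, 1.50 to 11.6 CPM in the other 11 and 1.35 to 8.23 CPM in hippocampus and amygdala, and did not pass (log2 -2.01, adjusted p = 0.0902). miR-429, miR-200b, miR-141 and miR-96-5p were under the filter on low counts, yet in the same 4 frontal libraries they reached 141 to 474, 52.5 to 132, 38.1 to 109 and 16.4 to 27.6 CPM. In the other 11 frontal libraries the highest value of any of these 4 was 5.41 CPM, and in hippocampus and amygdala it was 5.38 CPM. On the first principal component, which held 36.4% of the variance, the 8 libraries of animals 1, 2, 3 and 5 lay at 1 end. On the second component, which held 20.1%, the frontal libraries of animals 4, 6, 7 and 8 lay at 1 end. On it each frontal library lay on that side of the hippocampus-amygdala library of its own animal, while the regions overlapped across animals. The other groups also had more miR-183 in the frontal lobe. It averaged 2.53 CPM in hippocampus and amygdala and 226 CPM in frontal lobe at 1 day (log2 -6.80, SE 1.39, adjusted p = 0.00336; lower in 8 of 10 animals). With CsA it averaged 1.02 CPM in hippocampus and amygdala and 381 CPM in frontal lobe (log2 -8.36, SE 0.40, adjusted p = 3.69e-09; lower in 9 of 9 animals). In sham or naive animals the averages were 4.44 CPM in hippocampus and amygdala and 126 CPM in frontal lobe (log2 -4.16, SE 1.11, adjusted p = 0.00604; lower in 14 of 18 animals). The excess was thus not particular to the 1 week animals. With edgeR and all 15 animals, its size there did not pass as different from any of these groups (interaction adjusted p = 0.846 against 1 day, 0.0659 against CsA and 0.993 against sham or naive animals). With DESeq2 and all 15 animals, miR-183 did pass against 1 day and against CsA, and not against sham or naive animals. Which tissue the frontal blocks held was not tested. Leaving the 4 animals out left 100 calls, of which 98 were among the 141, and none was in the opposite direction.

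Where both arms of a miRNA name were measured, they mostly went the same way. Of 56 pairs of arms tested, 41 had the same sign. Among all miRNAs tested, taken singly, 51.3% passed, 25.1% higher and 26.2% lower. In 16 pairs both arms passed, and in 15 of these the direction was the same, higher for 5 (miR-92b, miR-139, miR-423, miR-500 and miR-532) and lower for 10. The exception was miR-30c, whose 5p arm was lower (log2 -0.31) and whose 3p arm was higher (log2 0.21, adjusted p = 0.0171). Arms were paired by name, and another 3p name, miR-30c-1-3p, exists, so this pair need not come from 1 hairpin.

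Precursors that are close neighbours on the chromosome, within 10000 bases in the Sscrofa11.1 annotation, were also compared. The annotation held 314 of the 408 precursor names, and 30 groups of neighbours had at least 2 miRNAs tested. In 7 of the 30 none passed, in 7 only 1 passed, and in 16 at least 2 passed. In 12 of these 16 all that passed were lower, in 3 all were higher and in 1 they were mixed. Among all miRNAs tested 51.3% passed, 25.1% higher and 26.2% lower, and these shares stand beside each count here. All 5 miRNAs tested of the miR-532, miR-500 and miR-362 group were higher, and all 5 of the miR-450 and miR-542 group were lower. The miR-23b and miR-23a groups had 4 of 4 and 3 of 3 lower, the miR-17 group 6 of 7 and the miR-143 and miR-145 group 3 of 3. The mixed group was miR-29b (log2 0.17) with miR-29c (log2 -0.18). A mature miRNA made from several loci counts in each of its groups, and arms of 1 hairpin count separately. miR-181a and miR-181b, for example, fill 2 of the groups in which all were lower.

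The animal codes fall into 2 classes, whose meaning the labels do not state. Among the 9 animals whose code holds the letter U (animals 7 to 15), 128 of 279 miRNAs (45.9%) differed between the regions, and among the 6 without a letter, 68 of 256 (26.6%). Of the 141 miRNAs, 138 were tested in both classes, and all 138 had the same sign in both, with 54 called in both. A test of the difference between the classes called 0 of 275 (0%) with edgeR, with 35 at an unadjusted p under 0.05. The smallest adjusted p was 0.0553 for miR-4332, named here after its values were seen, with a log2 fold change of 0.51 in animals with the letter and -0.996 in those without. The classes differ in their number of animals, so their counts of calls cannot be set against each other. Most codes before the hyphen were shared by 2 of the animals. When the libraries of such animals were summed to 8 codes, 115 calls were left, of which 112 were among the 141.

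The same region difference was then measured in the other groups, each in a paired fit of its own. Injured piglets at 1 day had 143 of 290 miRNAs called (49.3%), injured piglets with CsA 157 of 289 (54.3%), and sham or naive piglets 120 of 269 (44.6%). Of the 141 miRNAs of the 1 week animals, 113 were called in the same direction at 1 day, 115 with CsA and 108 in sham or naive animals. These are 80.1%, 81.6% and 76.6% of the 141, and 79.0%, 73.2% and 90% of the calls of each group. None was called in the opposite direction. The sign was the same in all 4 groups for 129, and 89 were called in all 4, 48 higher and 41 lower in hippocampus and amygdala. The groups share no animal, but 6 of the 1 week animals share the code before the hyphen with sham animals. Some 1 day animals likewise share theirs with CsA animals.

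Some named miRNAs had close values in the 4 groups and others did not. For the 141 miRNAs, where tested, the log2 fold change of each other group was divided by that at 1 week. The median ratio was 1.09 at 1 day, 1.33 with CsA and 0.96 in sham or naive animals. miR-146b had log2 fold changes of -2.13 (SE 0.15) in 1 week animals, -2.14 (SE 0.20) at 1 day, -1.75 (SE 0.22) with CsA and -2.35 (SE 0.22) in sham or naive animals. For miR-219b-3p the values were -1.01, -0.96, -0.89 and -0.93, and for miR-132 -0.69, -0.79, -0.71 and -0.69, in the same order. miR-31 had 0.97, 1.20, 1.22 and 1.02, and miR-7-5p 0.82, 0.82, 0.51 and 1.01. miR-204 had 1.55, 1.70, 1.06 and 1.51, and passed in each group. miR-34c had 1.45, 1.46, 1.71 and 1.28, and passed at 1 week and with CsA but not at 1 day (adjusted p = 0.308) or in sham or naive animals (adjusted p = 0.114). miR-92b-3p had 1.08, 1.41, 1.94 and 0.99.

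**Figure D5:**
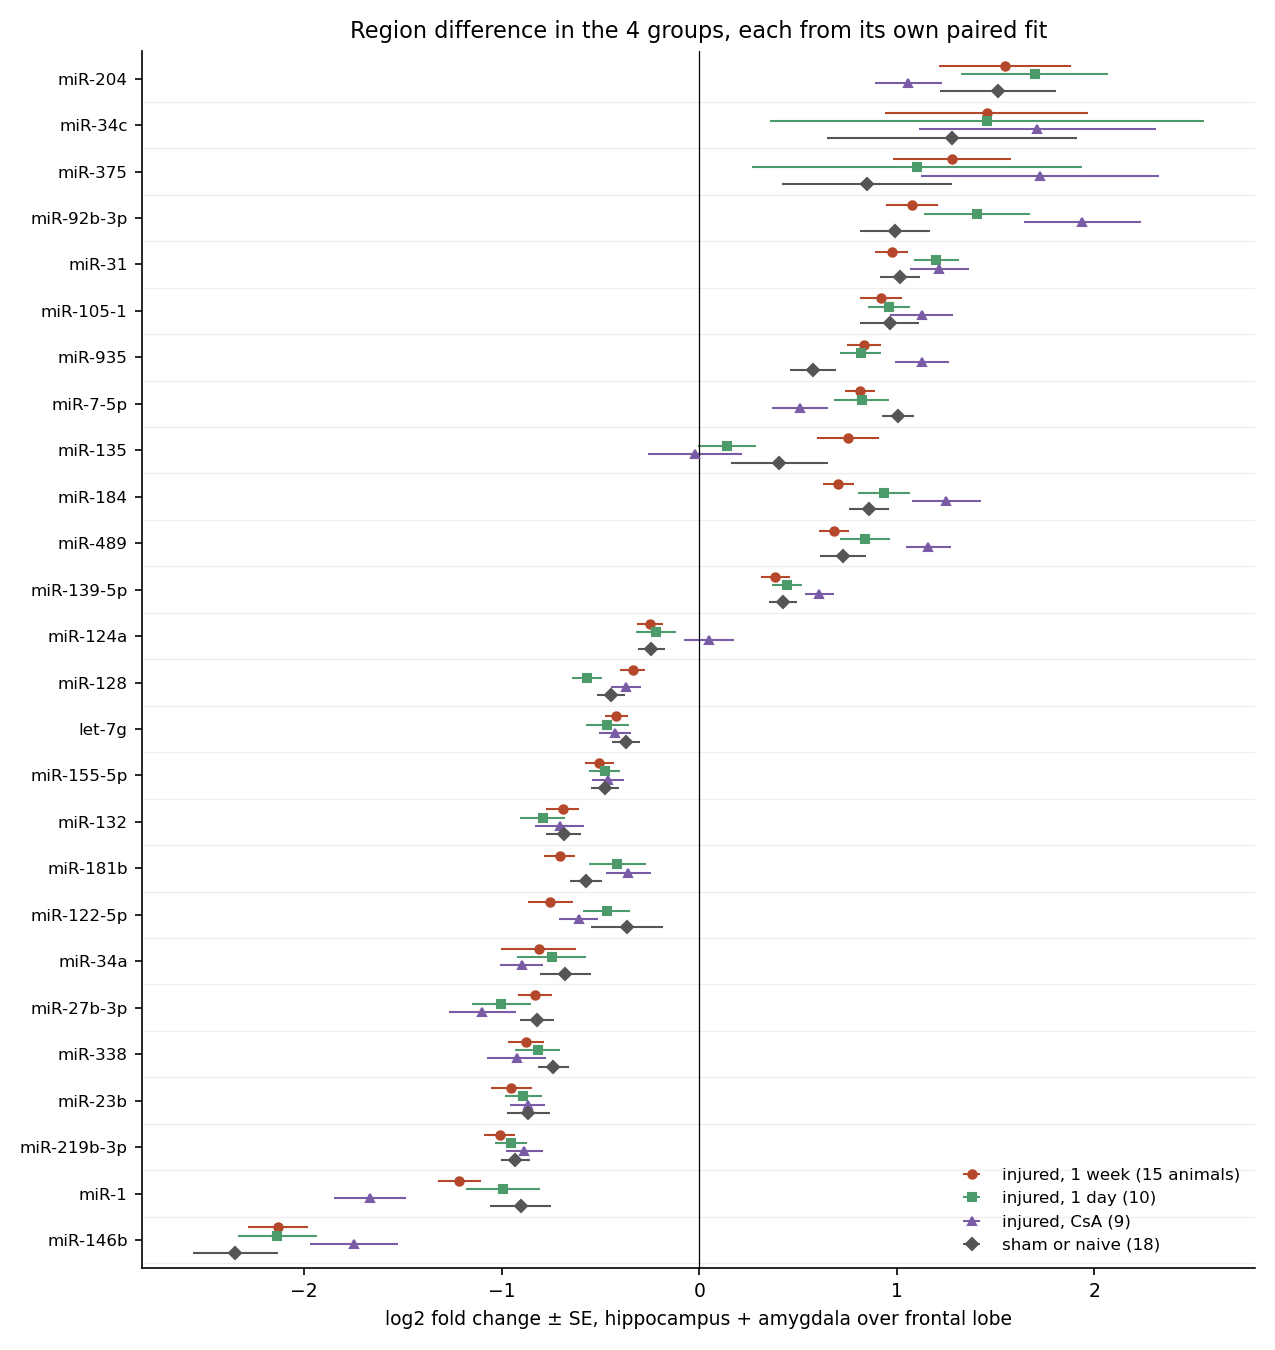
Log2 fold change ± SE, hippocampus and amygdala over frontal lobe, of 26 named miRNAs in injured animals at 1 week, at 1 day and with CsA, and in sham or naive animals, each group in its own paired fit. The 4 values lie on the same side of 0 for all but miR-135 and miR-124a, whose CsA values are -0.02 and 0.05.

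Whether the difference at 1 week was itself another than in the other groups was tested as an interaction over 307 miRNAs in the 52 animals with both regions. With edgeR, 0 miRNAs (0%) passed against 1 day, with 16 at an unadjusted p under 0.05 and a smallest adjusted p of 0.846. Against CsA 0 (0%) passed, with 78 at an unadjusted p under 0.05 and a smallest adjusted p of 0.0659. Against sham or naive animals 0 (0%) passed, with 5 at an unadjusted p under 0.05 and a smallest adjusted p of 0.993, and DESeq2 and limma voom also gave 0. Against CsA other tools gave calls, 35 with DESeq2 and 5 with limma voom, and DESeq2 gave 5 against 1 day. Those 5 were miR-183, miR-182, miR-429, miR-141 and miR-200b, whose frontal levels differed between animals as described above. Without animals 4, 6, 7 and 8, edgeR called 4 against 1 day, miR-183, miR-429, miR-182 and miR-141 (smallest adjusted p = 0.0139), and 6 against CsA, these 4 with miR-200b and miR-139-3p (smallest adjusted p = 2.88e-04). Against sham or naive animals it then called 0, with 9 at an unadjusted p under 0.05. The 5 of limma voom were miR-7134-3p, miR-374a-3p, miR-139-3p, miR-340 and miR-199b-5p. A p that misses the threshold does not show that the groups were alike. All 1 day and CsA animals have the letter U in their code, while some 1 week animals have no letter. Code class and group are therefore partly mixed in the comparisons with 1 day and with CsA. No comparison between groups was limited to animals with the letter U. The CsA animals also had a shorter survival than the 1 week animals, so drug and time cannot be told apart there. For miR-7-5p the 1 week difference exceeded that with CsA by 0.41 on the log2 scale (adjusted p = 0.123) and was below that in sham or naive animals by 0.16 (SE 0.14).

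There were 11 miRNAs called at 1 week and in no other group's own fit, with small differences for most. The largest was miR-135, with log2 0.75 at 1 week (adjusted p = 3.15e-04), 0.14 at 1 day, -0.02 with CsA and 0.41 in sham or naive animals. The difference from the CsA animals did not pass (adjusted p = 0.101), nor that from sham or naive animals (adjusted p = 0.993). miR-21-5p had -0.28 at 1 week, -0.14 at 1 day, -0.38 with CsA and -0.08 in sham or naive animals. miR-146a-5p had -0.70 at 1 week, -0.39 at 1 day and -0.19 with CsA, and was under the filter in sham or naive animals. The others were miR-185, miR-885-3p, miR-542-5p, miR-92a, miR-363, miR-29b, let-7d-5p and miR-10b, at 0.12 to 0.54 in size. None of the 11 passed an interaction test with edgeR. With DESeq2, let-7d-5p passed against CsA (log2 -0.12 at 1 week, 0.10 with CsA), and no other of the 11 passed in any comparison with DESeq2 or limma voom. None passed against all 3 groups, so none is shown to differ at 1 week alone.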

How the data were processed

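Small RNA libraries were made from 1 µg of total RNA with the QIAseq miRNA kit after extraction with a Mag-Bind kit for fixed tissue, per the labels' protocols. Trimmomatic 0.39 and cutadapt 1.9.1 were used, per the submitters' processing notes. The deposited values are whole-number counts per mature miRNA entry, not normalized by the authors. The aligner, counter, annotation and build, and whether molecular identifiers were used, were not given in the sources at hand, so a count is a read and not always a molecule.

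Of 542 deposited entries, 89 were 0 throughout. For each of 457 mature names the entry with the highest total was kept. Some sets of different names hold the same reads (15 names in 6 sets), so the 141 calls stand for 138 distinct read sets. Each code is taken to be 1 animal; 53 codes are present, while the series text speaks of 50 subjects.

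Counts of the 15 pairs were tested with edgeR 4.0.16 (glmQLFit, robust; R 4.3.3), with TMM factors, filterByExpr defaults (minimum count 10, minimum total 15), animal as a block and Benjamini-Hochberg adjustment at 0.05. Deviations from the region mean correlated within animals (median 0.429, lowest 0.0012, over 0.1 in 14 of 15). For 6 of the 15 hippocampus-amygdala libraries the frontal library of the same animal correlated best. The median between animals was 8.08e-04, which centring on the region mean holds near 0. The pairing was taken from the animal code in the library name, and these correlations do not settle it. No libraries agreed within sampling noise (for the closest, chi-square was 7939 with 243 degrees of freedom). Interactions came from 1 fit of 52 animals. Totals and let-7 shares were tested by exact sign flips (32768). Alternatives included DESeq2 1.42.0 and limma 3.58.1. The fits were tested on simulated data. Neighbouring precursors came from the RefSeq gene table (Sscrofa11.1), used for names and order only. Mature sequences were not used here.

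Members and lists were chosen with earlier results of these data known. Named miRNAs passed 0.05 with a mean of 10 CPM or more in either region and were the 12 largest in each direction and the 5 most abundant in each, plus a panel of neural, glial, blood and vascular miRNAs. List members are examples by small p.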

Additional observations from a re-analysis of the deposited data

How the results depend on the processing

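The region difference gave 141 calls (69 higher, 72 lower), and 131 to 143 (65 to 76 higher, 65 to 71 lower) without 1 animal each. With no replicate block the count was 95 (42 higher, 53 lower), and 94 of these are among the 141. The animals without a letter in the code alone gave 68 (32 higher, 36 lower). RLE factors gave 141, DESeq2 148, limma voom 142, no filter 145, a minimum count of 50 135, let-7 left out 134, every deposited entry 175, same-read names merged 138, and the library total as covariate 141. Leaving out animals 1, 2, 3 and 5, chosen after the totals were seen, gave 136 calls, and leaving out animals 4, 6, 7 and 8, chosen after their frontal libraries were seen, gave 100. None of the 141 was called in the opposite direction in any of these. The interaction calls were 0 with edgeR, 5 with DESeq2 against 1 day, 35 with DESeq2 and 5 with limma voom against CsA, and 4 against 1 day and 6 against CsA without animals 4, 6, 7 and 8. The code classes differed for 1 miRNA with RLE factors. The cause of these shifts was not tested. The ratio of library totals was 0.985 to 1.08 without 1 animal each, below 1 without animal 4, and the let-7 difference -1.93 to -1.43 points. Signs were compared for the named miRNAs only, and turned 4 times. miR-9, at 0.02 in the main fit, turned with let-7 left out (-0.0017), without replicate 12 (-0.00798) and without replicate 15 (-8.20e-04). Its range without 1 animal each was -0.00798 to 0.066. miR-210, at -0.16 in the main fit, turned in codes with no letter (0.13). Without 1 animal, 121 of the 141 calls were never lost and 20 were lost at least once. miR-183 moved by over 1.5-fold and was lost without any 1 of 8 animals. Among named miRNAs, the call was lost without animals 4, 6, 7 and 8 for 9 (miR-34c, miR-223, miR-486, miR-149, miR-151-5p, let-7a, miR-124a, miR-212 and miR-183), without animals 1, 2, 3 and 5 for 3 (miR-34c, miR-151-5p and let-7a), with no replicate block for 8, and in the fit of 52 animals for 3 (miR-34c, miR-486 and miR-146a-5p). Leaving out libraries under 1000000 counts changed nothing, since the smallest held 2450177. The median SE was 0.195 under 10 CPM and 0.063 at 1000 CPM or more.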
